A study of Arabidopsis thaliana with 24 samples.

Results

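The response of brm-1 plants to a short heat stress was measured as the difference between 3 brm-1 arrays after heat and 3 brm-1 arrays in control conditions, 6 of the 24 arrays of the series, over every gene that a probe set names alone (16552 genes). The brm-1 line is an Arabidopsis thaliana Col-0 mutant in BRAHMA (BRM), the ATPase of SWI/SNF chromatin remodelling complexes. Plants aged 3 weeks were collected after 1 h at 38 °C (heat) or before it (control). All plants grew on soil at 22 to 23 °C and 70% humidity with 16 h of light and 8 h of darkness. The brm-1 response was set against that of 2 other genotypes, each with 3 heat and 3 control arrays: the double mutant brm-1 hd2c-3, labelled as also carrying a mutation in the plant histone deacetylase gene HD2C, and Col-0 wild type (WT). The series' design text spells this double mutant brm-1 hd3c-3, whereas the title and the sample labels say hd2c-3, which is used here for every contrast with it. The arrays of hd2c-3 entered the same fit.

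Heat shock factors bind DNA within minutes of a temperature rise and switch on genes of chaperones, which hold, refold or disaggregate damaged proteins. Small heat shock proteins hold unfolding clients, HSP70 with its J-domain partners and nucleotide exchange factors refolds them, and HSP90 works with co-chaperones on signalling proteins. A parallel branch senses unfolded proteins in the endoplasmic reticulum. SWI/SNF complexes move or evict nucleosomes with the energy of ATP, and plants without BRM are small with altered leaves and flowering.

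Each value below is a deposited log2 value of 1 array, and each fold change is a difference of 3-array means on the log2 scale, given ± its standard error (SE) from limma. A gene counts as called where its p, adjusted by Benjamini and Hochberg's method across the 16552 genes, is under 0.05. The labels name the 3 arrays of a group as biological replicates, and per the series' design text they were picked for similar levels of marker genes, so their spread may be smaller than that of unselected plants. The labels name plants and no organ, so a mix of cells was measured, in which fewer cells of a type and less RNA per cell cannot be told apart. No probe set is named for BRM or HD2C, so the mutant labels were not checked on the targeted transcripts. The 3 brm-1 control arrays correlated at 0.991 to 0.992 over genes. Heat replicate 1 of brm-1 stood apart from the other two heat arrays, with correlations of 0.987 to each of them against 0.993 between them, and its median over all probe sets was 3.42, against 3.64 and 3.59. The counts of called genes in each comparison are therefore also given without it.

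In brm-1, 2613 of the 16552 genes changed after heat (15.8%), 1205 higher (7.28%) and 1408 lower (8.51%). Without heat replicate 1 of brm-1 the count was 2158, with 1044 higher and 1114 lower. The rises reached further than the falls. At least 4-fold changes were called for 77 genes that were higher and 9 that were lower, and all 32 called changes of at least 8-fold were rises. Most calls were small, with a median of 0.69 among the genes called higher and −0.66 among those called lower, and 542 of the 2613 (20.7%) changed at least 2-fold. The 3 heat values lay outside the 3 control values in 2557 of the called genes, a pattern seen in 30.9% of all genes tested. The median over all genes was 0.01.

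Small heat shock proteins rose strongly. Of 11 measured members of the family, 10 rose and none fell, with a median of 6.35 on the log2 scale against 0.01 over all genes. The loci of this family are given by their gene identifiers where the tables used here hold no symbol. AT2G29500 had 10.75, 10.97 and 10.78 in brm-1 heat, against 2.81, 2.53 and 2.70 in brm-1 control. The heat arrays lay far above the control arrays, and the difference of 8.15 ± 0.12 (285-fold, limma adjusted p = 9.75e-23) was the largest of all genes tested. AT1G53540 had 9.35, 9.54 and 9.27 in heat, against 1.91, 1.80 and 2.16 in control, a rise of 7.43 ± 0.22. ATHSP22.0, the small heat shock protein of the endomembrane system, had 8.54, 9.53 and 8.79 in heat, against 2.72, 2.34 and 2.76 in control. Heat replicate 2 was the highest of its arrays, and the rise was 6.35 ± 0.27 (81.4-fold, limma adjusted p = 7.87e-14).

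The family was graded. The rises were 7.22 ± 0.33 for AT1G07400, 6.57 ± 0.32 for AT1G54050, 6.49 ± 0.29 for AT5G51440, 5.98 ± 0.33 for AT5G37670 and 4.98 ± 0.35 for AT1G52560. Replicates disagreed most for AT1G59860, with 3.79, 5.57 and 5.62 in heat, against 1.86, 2.07 and 2.16 in control. Its heat replicate 1 was the lowest heat value, and the rise of 2.96 ± 0.49 was 3.56 without that array. AT4G21870 rose least, by 1.39 ± 0.23, with values of 5.51, 6.12 and 5.64 in heat, against 4.40, 4.48 and 4.21 in control. AT5G54660 was the member that did not pass the test, with overlapping groups and a difference of 0.14 ± 0.13 (limma adjusted p = 0.585). The 10 calls held when any 1 brm-1 array was left out.

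**Figure D1:**
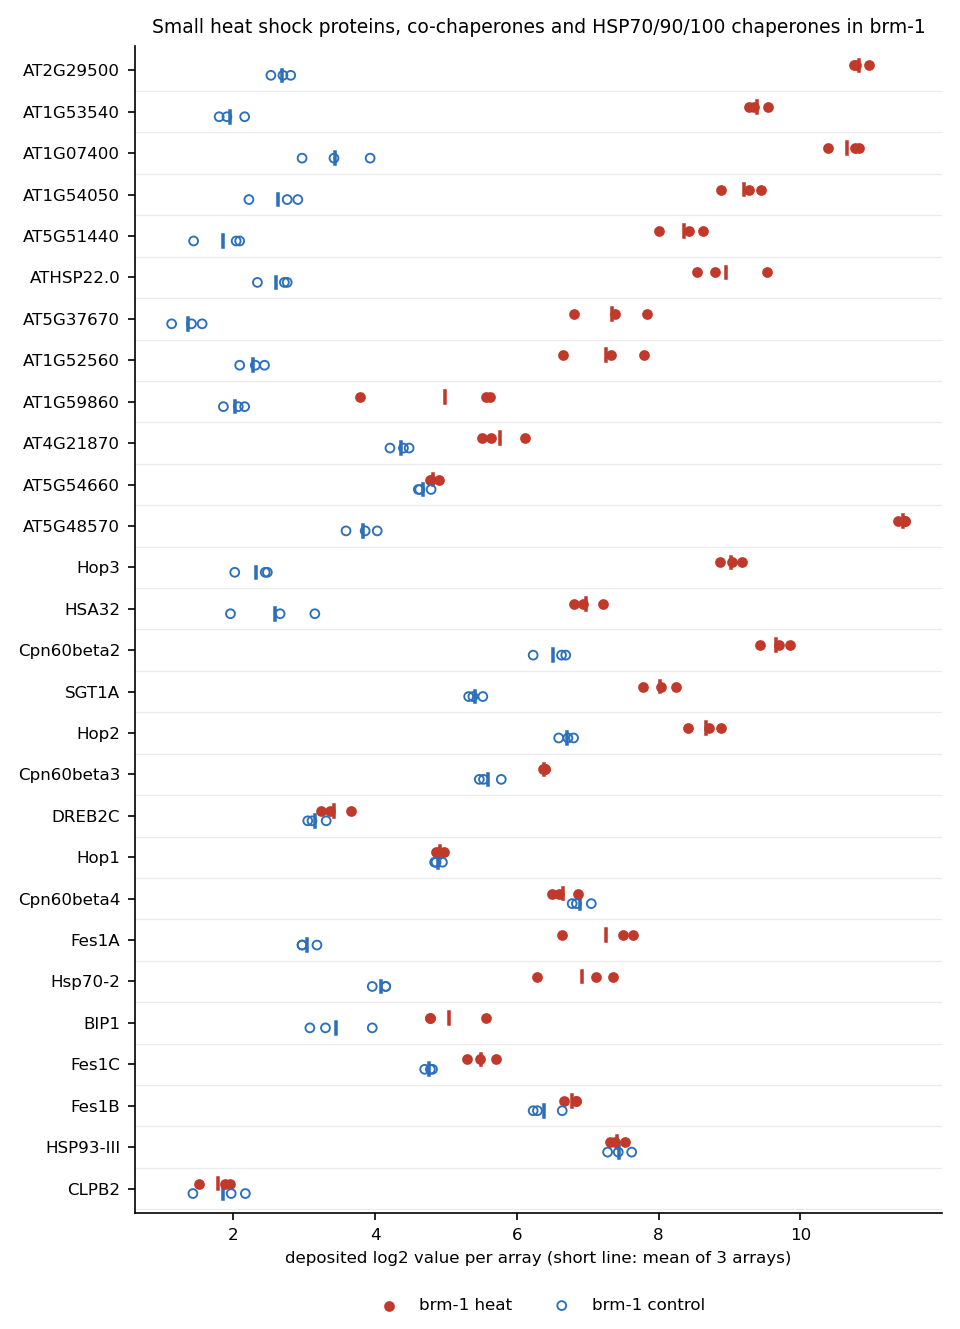
Deposited log2 values per array (horizontal axis) of the small heat shock proteins, the co-chaperones and other heat-induced genes, and the HSP70, HSP90 and HSP100 list, 1 gene per row in that order. The last group holds Fes1 exchange factors and no HSP90 gene. Filled red points are brm-1 heat arrays, open blue points brm-1 control arrays, and short lines their means. AT2G29500 shows the widest gap, 8.15, while AT5G54660, Hop1, CLPB2 and HSP93-III overlap.

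Of 10 measured co-chaperones and other heat-induced genes, a list that also holds chaperonin subunits, HSA32 and a transcription factor, 7 rose and none fell, at a median of 2.29. ROF2 (AT5G48570), a peptidyl-prolyl isomerase that binds HSP90, had 11.38, 11.47 and 11.48 in brm-1 heat, against 3.86, 4.03 and 3.59 in brm-1 control. These arrays were tight in heat, and the rise was 7.62 ± 0.18 (196-fold, limma adjusted p = 9.71e-19). Hop3, which hands clients between HSP70 and HSP90, had 8.87, 9.03 and 9.17 in heat, against 2.45, 2.02 and 2.48 in control, a rise of 6.71 ± 0.22. The Hop family was split. Hop2 rose by 1.97 ± 0.14, whereas Hop1 had overlapping groups and a difference of 0.03 ± 0.19 (limma adjusted p = 0.958).

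HSA32, which is needed to keep acquired thermotolerance, had 6.80, 7.21 and 6.93 in heat, against 3.15, 2.66 and 1.96 in control. The control arrays spread over more than 1 unit, yet all lay well below the heat arrays, and the rise was 4.39 ± 0.25 (21-fold, limma adjusted p = 1.56e-11). SGT1A, a partner of HSP90 in disease resistance, rose by 2.61 ± 0.18, with 7.78, 8.25 and 8.03 in heat, against 5.32, 5.38 and 5.52 in control. Among chloroplast chaperonin subunits, Cpn60beta2 rose by 3.14 ± 0.19 and Cpn60beta3 by 0.79 ± 0.14, while Cpn60beta4 had −0.24 ± 0.13 and overlapping groups. DREB2C, an AP2/ERF factor of the heat response, had a difference of 0.27 ± 0.16 (limma adjusted p = 0.328). BOB1, a NudC-type small chaperone outside these lists, rose by 2.66 ± 0.19, with 8.04, 8.42 and 8.46 in heat, against 5.92, 5.54 and 5.48 in control.

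Of 7 measured genes in the list of HSP70, HSP90 and HSP100 machinery, 5 rose and none fell. The list held no HSP90 gene, and its rises were in HSP70 genes and in Fes1 exchange factors of HSP70. Hsp70-2 had 6.28, 7.35 and 7.11 in brm-1 heat, against 4.15, 3.96 and 4.15 in brm-1 control. Heat replicate 1 was again the lowest heat array, and the rise of 2.83 ± 0.25 (7.11-fold, limma adjusted p = 3.05e-08) was 3.15 without it. Fes1A, a nucleotide exchange factor of HSP70, rose by 4.22 ± 0.36 (18.6-fold), with 6.64, 7.50 and 7.64 in heat, against 2.97, 3.18 and 2.97 in control. Its relatives moved far less, Fes1C by 0.74 ± 0.13 and Fes1B by 0.40 ± 0.12. HSP93-III and CLPB2 did not pass the test, at −0.03 ± 0.12 and −0.07 ± 0.20. The list's count was 3 without heat replicate 2 or control replicate 3 of brm-1, where BIP1 (adjusted p = 0.0595 and 0.0509) and Fes1B (adjusted p = 0.088 and 0.133) lost their calls in limma. The Fes1B call was also lost without heat replicate 1 or control replicate 1 (adjusted p = 0.0827 and 0.108).

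Of 4 measured J-domain proteins, which stimulate HSP70, 2 rose and none fell. AT2G20560 had 6.92, 7.41 and 7.50 in heat, against 2.34, 2.75 and 2.55 in control, a rise of 4.73 ± 0.34. ATERDJ3B, its counterpart in the endoplasmic reticulum, rose by 1.59 ± 0.16, with 7.76, 8.12 and 8.06 in heat, against 6.54, 6.48 and 6.15 in control. ATJ1 and ATERDJ2A did not pass the test, at 0.07 ± 0.15 and −0.35 ± 0.13.

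Genes that answer unfolded proteins in the endoplasmic reticulum rose in part, with 4 of 6 measured genes called, all higher, at a median of 1.00. BIP1, the HSP70 of that compartment, had 4.77, 5.56 and 4.78 in brm-1 heat, against 3.96, 3.30 and 3.08 in brm-1 control, a rise of 1.59 ± 0.41. The calreticulin gene CRT1b, whose product folds glycoproteins, rose by 1.03 ± 0.10, with 8.67, 8.62 and 8.67 in heat, against 7.69, 7.58 and 7.58 in control. The sensor gene BZIP28 rose by 0.97 ± 0.14. BZIP17 and BZIP60 did not pass the test, at 0.65 ± 0.22 (limma adjusted p = 0.0502) and 0.56 ± 0.23 (limma adjusted p = 0.108). DER1, a gene of the degradation of misfolded proteins from this compartment, lies outside the list and rose by 2.33 ± 0.15. Its values were 8.74, 9.09 and 9.02 in heat, against 6.65, 6.56 and 6.64 in control.

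Rises beyond chaperones included genes of plastids, mitochondria and the cell wall. FIB, a plastoglobule fibrillin, had 10.89, 10.99 and 10.96 in heat, against 8.63, 8.47 and 8.69 in control, a rise of 2.35 ± 0.14. The cytochrome c gene CYTC-2 rose by 2.12 ± 0.16 and the beta-galactosidase gene BGAL16 by 2.48 ± 0.16. In both, every heat array lay above every control array. Autophagy genes were higher in 5 of 10 cases and lower in none, led by ATG8E, which marks autophagosome membranes, at 1.22 ± 0.23, and ATG8H at 0.72 ± 0.16. The autophagy count was 3 without control replicate 3 of brm-1, where ATG8F (adjusted p = 0.106) and ATG3 (adjusted p = 0.0883) lost their calls in limma.

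Among transcription factors, 6 of 23 bZIP genes rose and none fell. bZIP58 led with 5.88, 6.31 and 6.54 in brm-1 heat, against 4.47, 4.67 and 4.44 in brm-1 control, a rise of 1.71 ± 0.32, followed by bZIP44 at 1.19 ± 0.21. BZIP34 had 0.97 ± 0.15 and BZIP53 had 0.57 ± 0.12, both called. All 6 calls held when any 1 brm-1 array was left out. Of 9 AP2/ERF factors none passed the limma test, and 3 did so at an unadjusted p under 0.05. Single rises in other lists were WES1, an auxin-conjugating enzyme gene, at 1.24 ± 0.19, the only one of 19 early auxin genes called, and the calcium sensor gene CML23 at 1.20 ± 0.26. The sugar exporter gene SWEET1 rose by 1.10 ± 0.19, against the direction of its relatives described below.

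**Figure D2:**
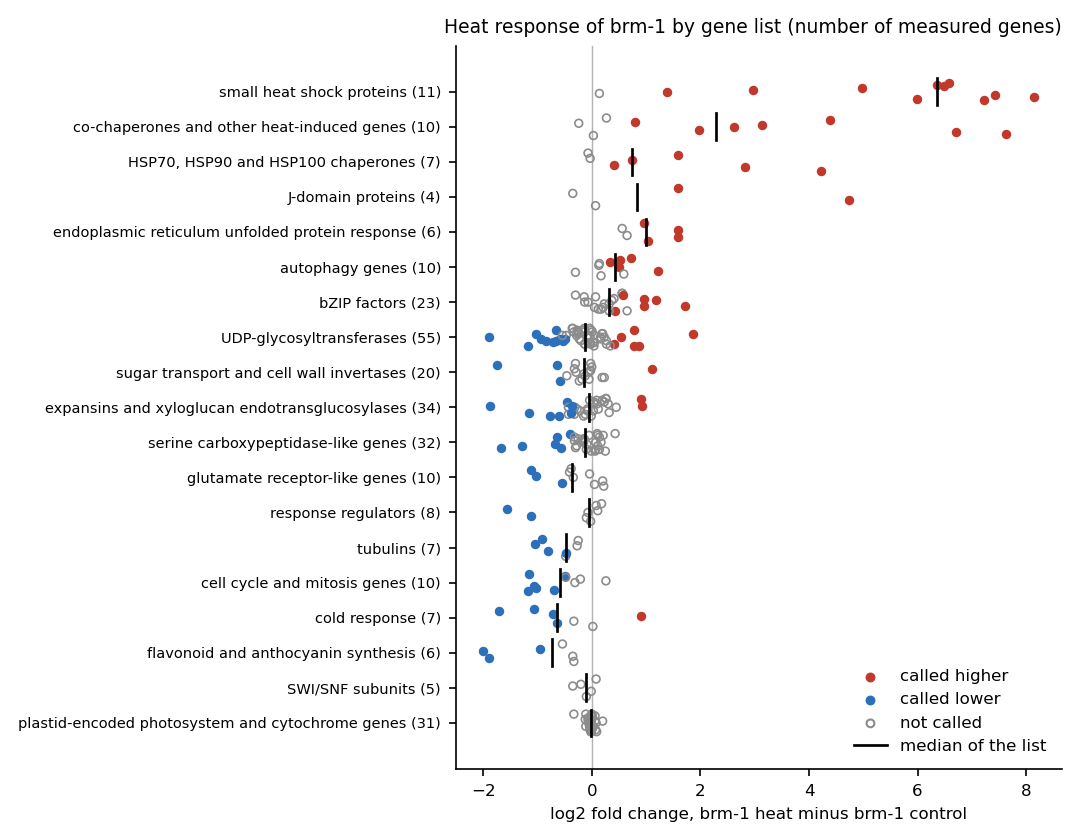
Log2 fold change of brm-1 heat minus brm-1 control (horizontal axis) for every measured gene of 19 lists, 1 list per row with its number of genes in brackets. Filled red points are called higher, filled blue points called lower, open grey points not called, and black lines are list medians. The small heat shock protein median lies at 6.35, and the plastid-encoded photosystem genes stay between −0.33 and 0.20.

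The anthocyanin genes DFR and UF3GT had the largest falls among genes with a symbol whose groups did not overlap. Only 1752 of the genes tested had a symbol, and the lowest fold change over all genes tested was −2.71. Falls of genes without a symbol were not ranked here. Of 6 measured flavonoid genes 3 fell and none rose, at a median of −0.74. DFR (dihydroflavonol reductase) had 4.40, 5.02 and 5.26 in brm-1 heat, against 5.56, 7.67 and 7.45 in brm-1 control. Control replicate 1 was about 2 units below the other control arrays and just above the heat arrays, and the difference was −2.00 ± 0.39 (limma adjusted p = 0.000881). UF3GT, a glycosyltransferase gene of anthocyanins, shared that pattern, with 3.33, 2.54 and 2.84 in heat, against 3.75, 5.43 and 5.23 in control and a fall of −1.90 ± 0.39. AT5MAT, which adds malonate to anthocyanins, had 2.72, 2.30 and 2.25 in heat, against 2.37, 4.23 and 3.50 in control. Here control replicate 1 lay among the heat arrays, and the call at −0.95 ± 0.30 (limma adjusted p = 0.0329) was lost without heat replicate 2 or 3 or without control replicate 2 or 3 (adjusted p between 0.1 and 0.281). UGT78D1, UGT78D2 and UGT78D3, which glycosylate flavonols and anthocyanins, did not pass the test, at −0.33, −0.54 and −0.35. DFR and UF3GT were already lower in brm-1 control than in WT control, by −2.28 ± 0.39 and −1.61 ± 0.39, a contrast that shares the brm-1 control arrays with the heat response (4.26% of genes called, 2.04% lower).

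Cold-regulated genes were mostly lower, 4 of 7 against 1 higher. COR27, a clock and cold gene, had 7.06, 7.29 and 7.47 in brm-1 heat, against 8.89, 8.94 and 9.12 in brm-1 control, a fall of −1.71 ± 0.16 (limma adjusted p = 8.05e-08). COR15B, a chloroplast stroma protein of freezing tolerance, had −0.71 ± 0.15 and KIN2 had −0.64 ± 0.12, both called. The dehydrin gene LTI30 had −1.06 ± 0.30, a call lost without heat replicate 2, control replicate 2 or control replicate 3 (limma adjusted p between 0.0506 and 0.151). KIN1, a close copy of KIN2 whose probe signals may be shared with it, rose by 0.91 ± 0.23. COR15A and COR47 did not pass the test, at −0.33 ± 0.12 and 0.02 ± 0.23.

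Genes of cell division fell together, 6 of 10 with none higher, at a median of −0.59. HTR12, the centromeric histone, had 4.34, 4.17 and 4.34 in brm-1 heat, against 5.32, 5.34 and 5.74 in brm-1 control, a fall of −1.18 ± 0.19 (limma adjusted p = 0.000117). The spindle checkpoint genes BUBR1 and BUB3.1 had −1.16 ± 0.21 and −1.03 ± 0.16, and the mitotic kinase gene AUR2 had −1.06 ± 0.16, all called and with no overlap between the groups. PRL, a subunit of the replicative helicase, had −0.69 ± 0.16. The topoisomerase gene TOPII had −0.49 ± 0.15, and its call was lost without heat replicate 1 or 2 or control replicate 1 (limma adjusted p between 0.0759 and 0.161). AUR1, ATSMC2, BUB3.2 and AUR3 did not pass the test, at −0.48, −0.31, −0.21 and 0.26.

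Tubulins went the same way, with 4 of 7 lower and none higher. TUBG1, the gamma-tubulin that nucleates microtubules, had 4.05, 4.65 and 4.77 in heat, against 5.43, 5.42 and 5.38 in control, a fall of −0.92 ± 0.19. The beta-tubulin genes TUB7 and TUB9 had −0.80 ± 0.18 and −0.48 ± 0.11, both called. TUB1 had −1.04 ± 0.27, a call lost without heat replicate 1 or control replicate 2 (limma adjusted p = 0.0768 and 0.0593).

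Cell wall loosening genes were lower in 7 of 34 cases and higher in 2. EXPA16, an expansin, had 4.86, 4.52 and 4.42 in brm-1 heat, against 6.33, 6.28 and 6.80 in brm-1 control, a fall of −1.87 ± 0.21 (limma adjusted p = 1.01e-06). EXPA15 had −1.15 ± 0.22, and EXGT-A3, a xyloglucan endotransglucosylase gene, rose by 0.93 ± 0.20. These 3 calls held when any 1 brm-1 array was left out, and the other 6 did not. The list's count of 9 became 4 without heat replicate 3 of brm-1, 5 without heat replicate 1 or control replicate 2 or 3, and 5 with array medians set equal over all probe sets.

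**Figure D3:**
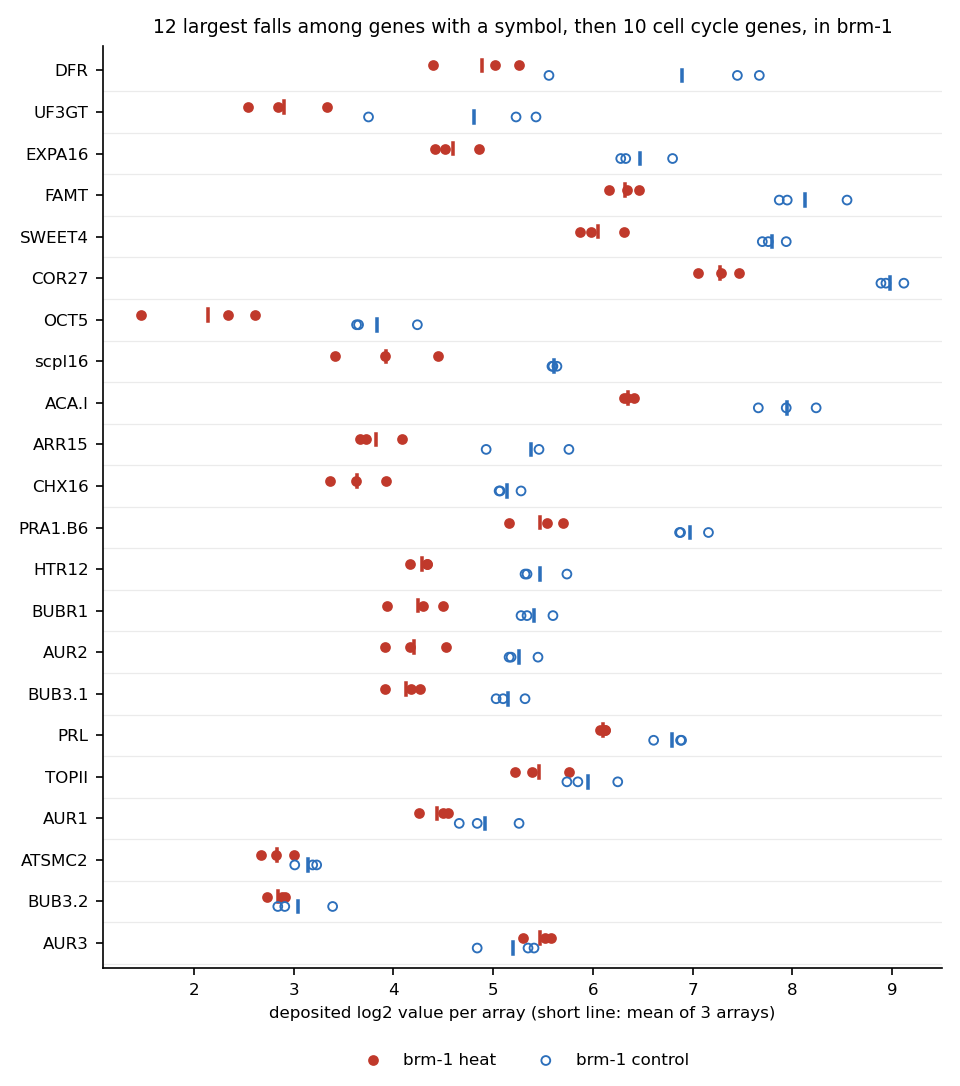
Deposited log2 values per array (horizontal axis) of the 12 largest falls among genes with a symbol, followed by the 10 measured cell cycle genes, 1 gene per row. Filled red points are brm-1 heat arrays, open blue points brm-1 control arrays, and short lines their means. The heat arrays lie left of the control arrays in every one of the 12 largest falls. Control replicate 1 of DFR and UF3GT sits apart from the other control arrays, at 5.56 and 3.75.

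Transporter and hormone genes were among the other large falls of genes with a symbol. SWEET4, a sugar transporter gene, had 5.98, 5.87 and 6.31 in heat, against 7.70, 7.76 and 7.94 in control, a fall of −1.74 ± 0.14 (limma adjusted p = 3.47e-09). Of the 20 sugar transport and invertase genes 3 were lower and 1 higher, not far from the 15.8% of all genes called (8.51% lower). The other falls were SWEET13 at −0.64 ± 0.15 and the tonoplast sugar transporter gene TMT1 at −0.58 ± 0.13. OCT5, an organic cation transporter gene, had −1.70 ± 0.26, and CHX16, a cation/proton exchanger gene, had −1.50 ± 0.22. In each of these falls the heat and control arrays did not overlap.

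ARR15, a cytokinin-induced response regulator that dampens cytokinin signalling, had 3.72, 4.09 and 3.66 in brm-1 heat, against 4.93, 5.76 and 5.46 in brm-1 control, a fall of −1.56 ± 0.33 (limma adjusted p = 0.00174). Its relative RR16 had −1.12 ± 0.26, and the other 6 of 8 response regulators did not pass the test. The methyltransferase gene FAMT had 6.34, 6.16 and 6.46 in heat, against 7.87, 8.55 and 7.95 in control, a fall of −1.80 ± 0.23. ACA.l, which the gene table lists under AT1G13210, had −1.60 ± 0.26, and PRA1.B6, a membrane traffic gene, had −1.50 ± 0.18.

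Larger gene families held calls in both directions or downward. Over all genes 15.8% were called, 7.28% higher and 8.51% lower. Of 55 UDP-glycosyltransferases, which attach sugars to small molecules, 11 fell and 6 rose. UF3GT fell most and UGT73C1 rose most, by 1.87 ± 0.30, with 4.64, 5.68 and 4.69 in heat, against 3.12, 2.92 and 3.37 in control. The count of 17 ranged from 11 to 14 when 1 brm-1 array was left out, with 11 without control replicate 3. Of 32 serine carboxypeptidase-like genes 6 fell and none rose, led by scpl16 at −1.68 ± 0.21 and scpl20 at −1.28 ± 0.18. Of 25 cytochrome P450 genes 2 fell and 1 rose, at a median of −0.02, which is no more than the shares over all genes. Of 10 glutamate receptor-like genes, which encode ion channels, 3 fell and none rose, led by GLR3.5 at −1.12 ± 0.18, which had 3.96, 4.94 and 4.42 in heat, against 5.61, 5.59 and 5.49 in control. Without control replicate 2 only GLR3.5 of these remained called, with GLR2.7 at an adjusted p of 0.0608 and GLR2.8 at 0.132 in limma.

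Genes of the chloroplast genome showed no called change. None of 58 plastid-encoded genes passed the limma test, 2 did so at an unadjusted p under 0.05, and their fold changes lay between −0.33 and 0.34. Among the 17 plastid-encoded polymerase and ribosome genes, 1 was called higher without heat replicate 1 of brm-1. The count there was also 1 with cyclic loess and with array medians set equal over all probe sets. Of 8 nuclear light harvesting and photosystem genes 1 was called, LHCB4.2 at 0.56 ± 0.13. This count was 3 with all array medians set equal over all probe sets and 4 with cyclic loess. None of 5 other SWI/SNF subunit genes was called, nor did any reach an unadjusted p under 0.05. Their fold changes lay between −0.35 and 0.08.

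The WT response was measured on separate arrays and served to ask where brm-1 responded differently. In WT 2198 genes were called (13.3%), 960 higher (5.80%) and 1238 lower (7.48%). Genes higher in both genotypes numbered 595, which is 49.4% of the brm-1 list and 62% of the WT list, and 758 genes were lower in both, 53.8% of the brm-1 list and 61.2% of the WT list. A call in 1 genotype only does not show a difference, and the difference itself was tested. It was called for 31 genes (0.187%), 25 with a brm-1 response above that of WT (0.151%) and 6 below it (0.0362%), and 1270 genes reached an unadjusted p under 0.05. The share above WT was 80.6%, against 68.4% of 19 genes with array medians set equal over the genes tested and 93.7% of 63 genes with medians set equal over all probe sets. The count was 29 without heat replicate 1 of brm-1, 11 without its heat replicate 2, 14 without its heat replicate 3, and 16 without its control replicate 2 or 3. It was 20 without heat replicate 1 of WT, 18 without control replicate 1 of WT and 17 without its control replicate 3.

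**Figure D4:**
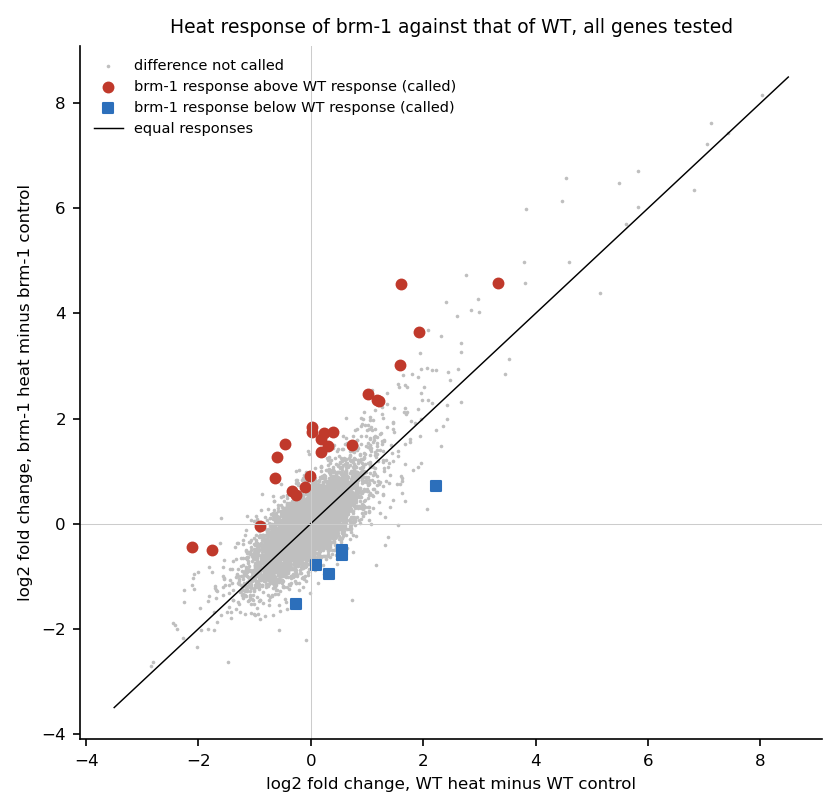
Log2 fold change in brm-1 (heat minus control, vertical axis) against that in WT (horizontal axis) for the 16552 genes, with the line of equal responses. Red circles are the 25 genes whose brm-1 response lay above that of WT and blue squares the 6 below it, at a limma adjusted p under 0.05. Grey points are genes whose difference was not called.

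Only 0.187% of all genes were called as different between the brm-1 and WT responses. Of the gene lists, only the UDP-glycosyltransferases held such a call, UGT87A2, so a list without one was the rule. The 3 lists taken up here held none. These were the 11 small heat shock proteins, the 10 co-chaperones and other heat-induced genes, and the 7 HSP70, HSP100 and Fes1 genes. The list medians in that order were 6.35, 2.29 and 0.74 in brm-1, against 4.59, 1.34 and 0.51 in WT, and these medians were not tested. Several single differences had large standard errors. AT5G37670 had a response of 5.98 ± 0.33 in brm-1 and 3.83 ± 0.33 in WT, a difference of 2.15 ± 0.47 (limma adjusted p = 0.0622). The difference was 2.02 ± 0.46 for AT1G54050 (adjusted p = 0.0674), 1.82 ± 0.51 for Fes1A (adjusted p = 0.167) and 0.86 ± 0.20 for Hop2 (adjusted p = 0.0767) in limma. AT2G29500 gave 0.13 ± 0.18 and HSA32 gave −0.76 ± 0.36, neither called.

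The largest called difference from WT was that of AT5G23480, a locus without a symbol in the tables used. It had 7.50, 7.92 and 7.75 in brm-1 heat and 3.27, 2.97 and 3.26 in brm-1 control, against 4.01, 5.07 and 4.32 in WT heat and 2.93, 2.68 and 2.99 in WT control. The control arrays of both genotypes lay close together, while the brm-1 heat arrays lay above all WT heat arrays. The response was 4.56 ± 0.25 in brm-1 and 1.60 ± 0.25 in WT, a difference of 2.96 ± 0.36 (limma adjusted p = 0.000479). AT3G14200 rose in both genotypes, by 3.64 ± 0.22 in brm-1 and 1.93 ± 0.22 in WT, a difference of 1.71 ± 0.31. Its starting level differed too, with 6.61, 6.60 and 6.51 in brm-1 control, against 7.71, 7.50 and 7.57 in WT control. DER1, described above, had a difference of 1.13 ± 0.21 (limma adjusted p = 0.0261), from a rise of 2.33 ± 0.15 in brm-1 and 1.21 ± 0.15 in WT. It also rose by 1.94 ± 0.15 in the double mutant and by 2.02 ± 0.15 in hd2c-3. The brm-1 and double mutant responses of DER1 differed by 0.40 ± 0.21 (limma adjusted p = 0.452).

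Other genes rose in brm-1 and did not pass the test in WT. AT5G15940 had 4.32, 4.95 and 4.56 in brm-1 heat and 2.76, 2.73 and 2.84 in brm-1 control, against 2.19, 2.73 and 2.54 in WT heat and 2.42, 2.51 and 2.45 in WT control. Among these arrays the brm-1 heat arrays stood apart, and the difference of responses was 1.80 ± 0.30 (limma adjusted p = 0.0101). AT5G15940 also rose in the double mutant, by 1.44 ± 0.22, and the responses of brm-1 and the double mutant differed by 0.39 ± 0.30 (limma adjusted p = 0.679). For AT5G41761 the response was 1.75 ± 0.18 in brm-1 and 0.03 ± 0.18 in WT. Unlike AT5G15940, it was not called in the double mutant, at 0.43 ± 0.18. Its brm-1 response exceeded that of the double mutant by 1.32 ± 0.25 (limma adjusted p = 0.00496). In control it already stood higher in brm-1 than in WT, by 0.75 ± 0.18 (limma adjusted p = 0.0128), a contrast that shares the control arrays. ZCF37 had 1.75 ± 0.20 in brm-1 and 0.40 ± 0.20 in WT, a difference of 1.35 ± 0.28 (limma adjusted p = 0.0397).

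In AT3G28270 and AT1G72416 the genotypes differed before heat. AT3G28270 had 5.85, 5.84 and 5.59 in brm-1 heat and 4.45, 4.66 and 4.35 in brm-1 control, against 6.08, 5.87 and 5.59 in WT heat and 6.30, 6.31 and 6.71 in WT control. The heat arrays of both genotypes overlapped and the control arrays did not. The response was 1.27 ± 0.21 in brm-1 and −0.60 ± 0.21 in WT, a difference of 1.87 ± 0.29 (limma adjusted p = 0.00574), and the control levels differed by −1.95 ± 0.21. For AT1G72416 the response was 1.51 ± 0.24 in brm-1 and −0.46 ± 0.24 in WT, with control levels apart by −1.34 ± 0.24. The response contrasts and these control contrasts share the control arrays.

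Calls in opposite directions were made for 4 genes, and the difference was called in 3 of them. ARL, a gene that promotes organ growth downstream of brassinosteroids, had 6.63, 6.80 and 6.62 in brm-1 heat and 5.78, 5.79 and 5.91 in brm-1 control, against 5.55, 5.52 and 5.62 in WT heat and 6.38, 6.14 and 6.08 in WT control. It rose by 0.86 ± 0.19 in brm-1 and was lower after heat in WT, at −0.64 ± 0.19, a difference of 1.50 ± 0.27 (limma adjusted p = 0.0154). ARL was also called higher in the double mutant, at 0.62 ± 0.19. The brm-1 and double mutant responses of ARL differed by 0.24 ± 0.27 (limma adjusted p = 0.814). UGT87A2, a glycosyltransferase gene linked to flowering time, ran the other way, with −0.59 ± 0.14 in brm-1 and 0.56 ± 0.14 in WT. AT3G21670, the nitrate/peptide transporter family gene NPF6.4, had −0.50 ± 0.15 in brm-1 and 0.56 ± 0.15 in WT, and its brm-1 call was lost without heat replicate 1 or 3 or without control replicate 2 or 3 (limma adjusted p between 0.0533 and 0.118). The fourth, AT1G76380, had 0.38 ± 0.13 in brm-1 and −0.41 ± 0.13 in WT, and the difference of 0.79 ± 0.18 was not called (limma adjusted p = 0.0703). It was named after its values were seen, and its brm-1 call was lost in each of the 6 fits without 1 brm-1 array.

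Further genes had lower responses in brm-1 or lacked a fall seen in WT. AT3G04000 rose in both, by 0.71 ± 0.19 in brm-1 and 2.23 ± 0.19 in WT, a difference of −1.52 ± 0.26 (limma adjusted p = 0.0116). The brm-1 call was lost without control replicate 1 of brm-1 (adjusted p = 0.0787). YAO, a nucleolar protein gene of embryo and gametophyte development, had −0.95 ± 0.18 in brm-1 and 0.32 ± 0.18 in WT. AT1G80130 had −0.44 ± 0.25 in brm-1 and −2.11 ± 0.25 in WT, and YAB5, a leaf polarity factor, had −0.05 ± 0.12 in brm-1 and −0.91 ± 0.12 in WT. YAB5 already stood lower in control, at 4.61, 4.81 and 4.70 in brm-1, against 6.43, 6.47 and 6.52 in WT.

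Several of these calls were lost when 1 array was left out, while the differences stayed in the same direction. Without heat replicate 2 of brm-1 the difference from WT was no longer called by limma for AT1G72416 (1.88, adjusted p = 0.0553), AT3G14200 (1.67, adjusted p = 0.0638), ARL (1.44, adjusted p = 0.0638), AT3G04000 (−1.40, adjusted p = 0.0553) and AT3G21670 (−1.11, adjusted p = 0.0717). The same held for YAO (−1.29, adjusted p = 0.0818), AT1G80130 (1.68, adjusted p = 0.0824), AT2G39710 (−1.07, adjusted p = 0.1) and AT3G08030 (−0.89, adjusted p = 0.0717) in limma. The calls were also lost without heat replicate 3 for AT1G72416, without control replicate 1 of WT for ARL, and without heat replicate 3 or control replicate 3 of brm-1 or control replicate 1 of WT for AT3G14200. AT1G80130, AT3G21670, AT3G08030 and YAO each lost theirs in 10 of the 12 fits without 1 array, and AT2G39710 in 11.

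**Figure D5:**
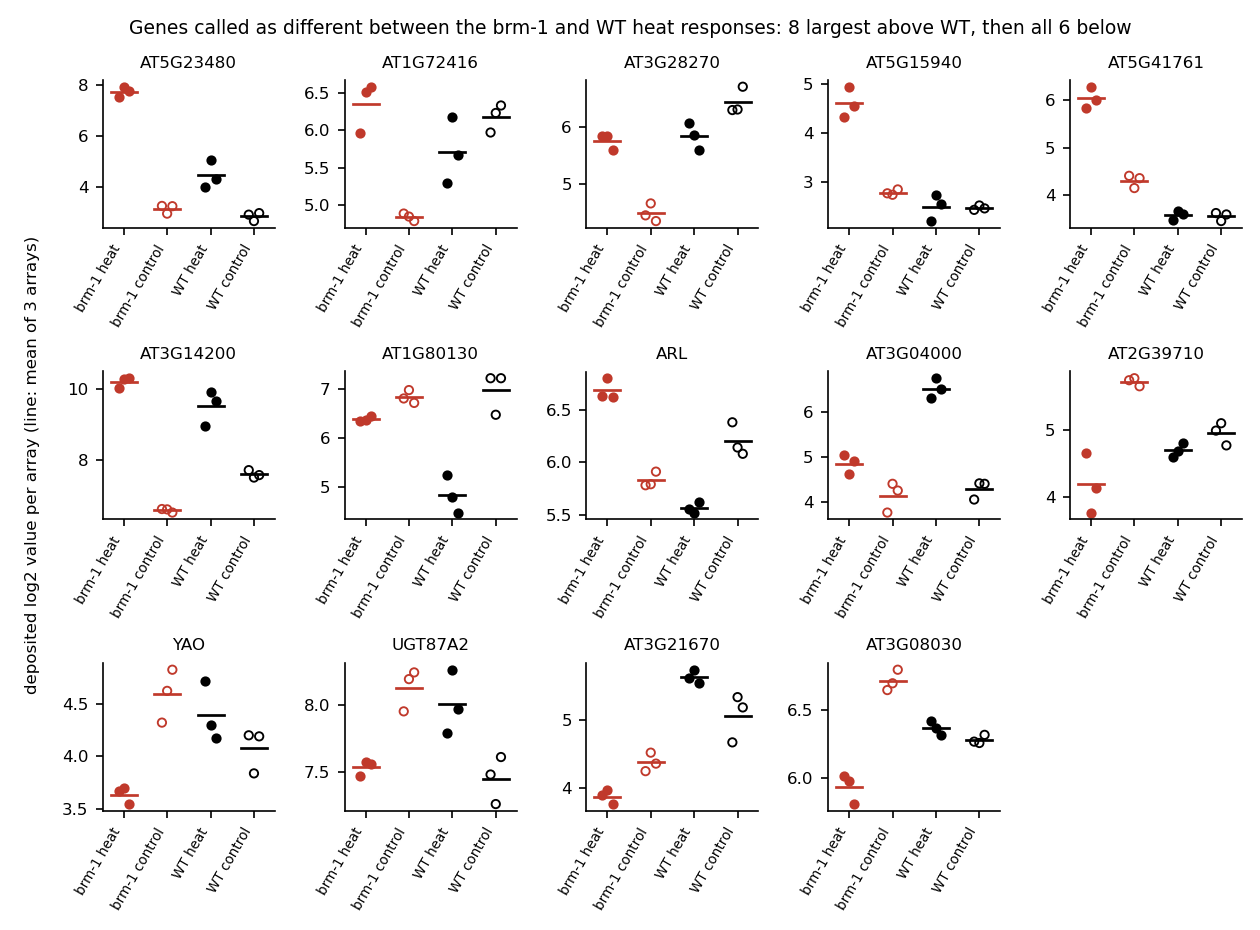
Deposited log2 values per array (vertical axis, own scale per panel) of 14 genes called as different between the brm-1 and WT responses, the 8 largest differences with a brm-1 response above WT followed by all 6 below. Filled red points are brm-1 heat, open red points brm-1 control, filled black points WT heat and open black points WT control, with lines at the means. In AT5G23480 the brm-1 heat arrays, from 7.50 to 7.92, lie above every other array.

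The brm-1 response was also set against that of brm-1 hd2c-3, the other genotype with the brm-1 mutation, in which 21.5% of genes were called after heat, 9.38% higher and 12.1% lower. The difference was called for 389 genes (2.35%), 119 with a brm-1 response above that of the double mutant (0.719%) and 270 below it (1.63%), and 2200 genes reached an unadjusted p under 0.05. The count was 322 without heat replicate 1 of brm-1, 219 without its heat replicate 3, 168 without its control replicate 2 and 229 without its control replicate 3. It was 223 without heat replicate 3 and 258 without control replicate 1 of the double mutant.

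In the largest differences the double mutant rose and brm-1 did not pass the test. AT1G70640 had 3.31, 4.48 and 4.10 in brm-1 heat and 3.56, 5.23 and 5.62 in brm-1 control, against 7.37, 6.79 and 8.21 in double mutant heat and 3.99, 3.70 and 3.89 in double mutant control. Only the double mutant heat arrays were high, and control replicate 1 of brm-1 lay below its 2 sister arrays. The response was −0.84 ± 0.39 in brm-1 and 3.60 ± 0.39 in the double mutant, a difference of −4.44 ± 0.56 (limma adjusted p = 0.000144). AT4G35985 and AT4G36010 had responses of −0.59 ± 0.33 and −0.50 ± 0.34 in brm-1, against 2.73 ± 0.33 and 2.71 ± 0.34 in the double mutant. AT3G04010 had 0.06 ± 0.21 in brm-1 and 2.98 ± 0.21 in the double mutant. Its annotated span overlaps that of AT3G04000 in the reference table, and the probe positions were not used.

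AT4G33930 rose in both, by 1.87 ± 0.33 in brm-1 and 4.74 ± 0.33 in the double mutant. Of the lists, the cold gene COR47 had 0.02 ± 0.23 in brm-1 and 2.46 ± 0.23 in the double mutant, a difference of −2.44 ± 0.32 (limma adjusted p = 0.000221), and LTI30, KIN1 and KIN2 had differences of −1.59, −1.47 and −0.71, all called. ATHSP22.0 was the one small heat shock protein called here, with 6.35 ± 0.27 in brm-1 and 8.18 ± 0.27 in the double mutant (limma adjusted p = 0.011). The cell cycle genes TOPII and AUR1 had −0.49 ± 0.15 and −0.48 ± 0.21 in brm-1, against −1.49 ± 0.15 and −1.69 ± 0.21 in the double mutant, and both differences were called.

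Responses above those of the double mutant were led by the bZIP factor gene bZIP42. It had 3.97, 4.44 and 4.53 in brm-1 heat and 3.82, 4.29 and 3.15 in brm-1 control, against 3.04, 2.74 and 3.02 in double mutant heat and 4.79, 5.23 and 4.18 in double mutant control. The brm-1 arrays overlapped between conditions, whereas the double mutant was lower after heat, and the difference was 2.36 ± 0.38 (limma adjusted p = 0.00123). AT5G23480 and AT3G14200, the loci with stronger rises than in WT, had differences of 2.0 ± 0.36 and 1.91 ± 0.31 here. AT5G22430 had 0.15 ± 0.25 in brm-1 and −1.58 ± 0.25 in the double mutant. AT1G14200 had 1.97 ± 0.35 in brm-1 and 0.01 ± 0.35 in the double mutant, a difference of 1.97 ± 0.50 (limma adjusted p = 0.0336) that lost its call without heat replicate 2 or 3 or control replicate 2 or 3 of brm-1 and without heat replicate 1 or 3 or control replicate 1 or 2 of the double mutant.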

How the data were processed

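Total RNA of 24 plant samples, 8 groups of 3, was hybridised to Affymetrix whole-transcript arrays. The deposited values are on a log2 scale and were made by the authors with RMA in Partek, per the submitters' processing notes; RMA corrects background and equalises array distributions, which can shrink global shifts. Versions and settings are not given in the sources used here.

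Of 38408 probe sets, 16746 name 1 gene, 758 several and 20904 none. The brightest probe set was kept for each of 16552 genes. limma 3.58.1 in R 4.3.3 fitted 1 mean per group over all 24 arrays, with Benjamini-Hochberg adjustment over all genes and two-sided tests. Data for the brm-1 heat response were simulated over 16552 genes with independent normal noise, 50 genes being changed at each size. On the log2 scale 100% of changes of 2, 96% of changes of 1, 86% of changes of −1 and 28% of changes of 0.5 were recovered. Of the calls 3.12% were false. Far fewer genes were changed there than were called in the data, so these rates need not hold for the real response. The number of arrays limits the precision. Figures were drawn with matplotlib 3.10.9.

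The members and the 42 gene lists (723 genes) were chosen with earlier results of these data known. Named genes are the 12 largest rises and 12 largest falls with a symbol and non-overlapping groups, up to 4 called members of each list, up to 8 genes each way for the difference from WT and 5 each way for that from the double mutant. List members outside these and the genes with calls in opposite directions were named after their values were seen. Promoter motifs were not analysed here. One gene list is not reported here. Alternatives changed the scaling, the filter, the fit and the arrays included.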

Additional observations from a re-analysis of the deposited data

Results flagged for a closer look

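The following genes had a heat response in brm-1 that differed from another genotype by the limma test of the difference itself. For brm-1 minus WT the differences were 2.96 for AT5G23480, 1.97 for AT1G72416, 1.87 for AT3G28270, 1.80 for AT5G15940, 1.73 for AT5G41761, 1.71 for AT3G14200, 1.67 for AT1G80130 and 1.50 for ARL. They were −1.52 for AT3G04000, −1.27 for AT2G39710, −1.26 for YAO, −1.15 for UGT87A2, −1.06 for AT3G21670 and −0.87 for AT3G08030. Of these 14 genes, AT5G23480, AT3G28270, AT5G15940 and AT5G41761 kept their call under every alternative run gene by gene (all but the 2-fold requirement).

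For brm-1 minus brm-1 hd2c-3 the differences were −4.44 for AT1G70640, −3.32 for AT4G35985, −3.21 for AT4G36010, −2.92 for AT3G04010 and −2.87 for AT4G33930. They were 2.36 for bZIP42, 2.0 for AT5G23480, 1.97 for AT1G14200, 1.91 for AT3G14200 and 1.74 for AT5G22430. All of these except AT1G14200 kept their call under the same alternatives.

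Probe sets without a gene name, which no comparison above uses, also carried signal. In limma 2470 of 20904 were called in the brm-1 heat response (11.8%), 997 higher and 1473 lower.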

How the results depend on the processing

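The count of genes called in the brm-1 heat response, 2613, stayed within 1.5 times under every alternative except a 2-fold requirement, which left 542; leaving out 1 brm-1 array gave 2001 to 2158. The difference from WT, 31 genes, was less stable. It was 19 with equal array medians, 63 with equal medians over all probe sets (an alternative chosen after seeing the data), 56 with quantile normalization, 59 with cyclic loess, 88 for genes above the median, 78 with an intensity trend, 180 with array weights and 20 over every probe set, and 11 to 33 with 1 array left out. The difference from the double mutant, 389 genes, was 197 with 12 arrays in the fit, 600 for genes above the median, 227 at 2-fold, and 168 to 550 with 1 array left out. The cause of these shifts was not tested. With the replicate number as a block the counts were 2262 for the brm-1 response, 15 for the difference from WT and 217 for that from the double mutant. Same-numbered brm-1 arrays did not deviate together (correlations of −0.05, 0.09 and −0.03), so the numbers were not taken as pairs. Of 115 genes named for the brm-1 response, 82 kept their call under every alternative other than the 2-fold requirement, which was not applied gene by gene, and no named result changed sign.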

Other observations

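Other gene groups also held calls in brm-1, where 15.8% of all genes were called. Of 26 peroxidase, catalase and glutathione transferase genes 4 fell and none rose, among them PRX52 at −0.75 and the glutathione transferase gene GSTU20 at −0.65. The PRX52 call was lost without heat replicate 3 or control replicate 2 of brm-1 (limma adjusted p = 0.0545 and 0.0871). Of 24 beta-glucosidase genes 3 fell and none rose, BGLU42 at −0.68, BGLU44 at −0.67 and BGLU33 at −0.48, the last lost without heat replicate 1 or 2 or control replicate 1 or 2.

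Of 23 RNA polymerase II and Mediator genes 3 rose and 1 fell. MED19A rose by 0.83 and MED6 by 0.75, while the polymerase subunit gene NRPB9B had −0.94, a call lost without control replicate 3 (limma adjusted p = 0.0599). Of 83 defensin-like genes 1 rose and 2 fell, with PDF1.4 at 1.64 and LCR67 at −1.32. Of 12 ubiquitin-specific protease genes 3 were called, 1 higher and 2 lower, with UBP21 at −1.38. Of 10 U-box ligase genes 3 were called, 1 higher and 2 lower, with PUB24 at −0.99. When 1 brm-1 array was left out, the count ranged from 1 to 3 for the ubiquitin-specific protease and for the U-box ligase genes. It ranged from 3 to 4 for the RNA polymerase II and Mediator genes and from 2 to 3 for the defensin-like genes. Of 7 WRKY factor genes 2 were called, and that count ranged from 0 to 2. The WRKY factor genes WRKY22 and WRKY6 were called in opposite directions, at 0.88 and −0.60, and these calls were lost without heat replicate 1 or control replicate 2 of brm-1 for WRKY22 (limma adjusted p = 0.174 and 0.0653) and without heat replicate 3 or control replicate 2 for WRKY6 (limma adjusted p = 0.0621 and 0.0648).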
